A study of Homo sapiens with 6 samples.

Results

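Chromosome 19 carries a long series of genes for zinc finger proteins, and 249 of the 58735 genes in the deposited expression table were taken as its zinc finger genes. They were chosen by 3 labels in that table: protein-coding biotype, chromosome 19, and a symbol beginning with ZNF. The rule itself uses no expression value. Of the 249 genes, 239 were annotated in the table as C2H2 zinc finger factors, the class in which a finger is held by 2 cysteines and 2 histidines around a zinc ion. They were set against the 1223 other protein-coding genes of chromosome 19 and the 266 protein-coding ZNF genes of other chromosomes.

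RNA was sequenced from HEK293, a line from human embryonic kidney, with stable expression of a mutated form of tensin 2, a protein of focal adhesions. In Y483E a tyrosine is replaced by glutamate, which resembles a phosphorylated residue, and in Y483F the same tyrosine is replaced by phenylalanine, which cannot be phosphorylated. Each line had 3 libraries described as biological replicates, which the submitters numbered 1, 4 and 5 in each line. These are called replicates 1, 2 and 3 here, in that order. The labels do not say whether a line was 1 clone, what the numbers stand for, or whether the replicates were separate cultures, so p-values measure only the spread between these libraries. There were no cells with wild-type tensin 2 and none without the construct among the samples, so each result is a difference between the 2 mutants.

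Most of these genes arose by tandem duplication and still lie side by side in clusters. Many encode KRAB zinc finger proteins, in which an array of fingers reads DNA and the KRAB domain binds the corepressor TRIM28, which brings in the histone methyltransferase SETDB1 and heterochromatin protein 1. Their best known targets are transposable elements, and they are typically transcribed at low levels.

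Reads in genes summed to between 17204498 and 23284592 per library. TNS2, where construct and endogenous gene cannot be told apart, was at 0.753, 1.04 and 1.05 FPKM (fragments per kilobase of gene, scaled to library depth) in Y483E and 1.07, 1.16 and 1.16 in Y483F, so this gene does not check the labels of the mutants. Of 9 genes taken as usual for HEK293, 6 had a mean of at least 1 FPKM, and NEFM, PAX2 and LHX1 lay below that. Of 16 markers of other cell types, 15 had a mean under 1 FPKM and 4 had 0 reads, and their sum was 1.74 to 2.44 FPKM in Y483E and 2.08 to 2.47 in Y483F. Their part in the results was not tested.

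Sorted by start, and with a new cluster opened at every gap over 500 kb, 235 of the 249 genes fell into 10 clusters of at least 5 genes, and 14 lay outside them. The positions are those of the authors' table, which match GENCODE 29 on GRCh38. Clusters 1 to 4 lie on the short arm and clusters 5 to 10 on the long arm. The largest were cluster 10 with 43 genes at 57.19 to 58.48 Mb, cluster 8 with 40 at 51.57 to 53.58 Mb and cluster 4 with 37 at 19.67 to 24.13 Mb. A gap of 250 kb gave 12 clusters and one of 1000 kb gave 9. The predicted proteins held a median of 12 finger patterns over the 249 genes, from 0 to 36, and ZNF208 of cluster 4 held the most. Proteins were predicted for 248 genes. ZNF625-ZNF20 gave none and was counted with 0 fingers and without a KRAB pattern. A KRAB pattern was found in 209 of the 249, including 39 of 40 in cluster 8 but 6 of 16 in cluster 9. The pattern is a short stretch of the domain, so a protein without it may still carry a KRAB domain in another isoform or a divergent form.

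Promoter sequences were available for 184 of the 249 genes, from RefSeq on GRCh38.p14, as windows of 250 bases before to 50 after a start site. A set of 6 is printed because they span the range of levels and of changes described below, with every CG pair in capitals. The first 3 belong to genes of 10 FPKM or more, and the last 3 to genes of cluster 4, where CG pairs are few.
ZNF146, chr19:36214856-36215155, plus strand: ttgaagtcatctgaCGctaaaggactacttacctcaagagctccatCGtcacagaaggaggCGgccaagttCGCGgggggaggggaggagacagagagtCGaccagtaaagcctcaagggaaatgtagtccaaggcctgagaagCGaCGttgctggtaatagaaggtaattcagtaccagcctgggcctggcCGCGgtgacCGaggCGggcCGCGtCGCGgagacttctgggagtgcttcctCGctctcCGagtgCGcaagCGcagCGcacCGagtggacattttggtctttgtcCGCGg
ZNF428, chr19:43619580-43619879, minus strand: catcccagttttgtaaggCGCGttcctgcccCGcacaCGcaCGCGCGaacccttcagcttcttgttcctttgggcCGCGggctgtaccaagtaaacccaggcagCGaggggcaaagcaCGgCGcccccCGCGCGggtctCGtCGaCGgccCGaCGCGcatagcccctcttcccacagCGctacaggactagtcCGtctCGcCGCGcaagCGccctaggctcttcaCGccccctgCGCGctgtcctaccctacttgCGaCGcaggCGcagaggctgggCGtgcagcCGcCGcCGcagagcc
ZNF358, chr19:7515853-7516152, plus strand: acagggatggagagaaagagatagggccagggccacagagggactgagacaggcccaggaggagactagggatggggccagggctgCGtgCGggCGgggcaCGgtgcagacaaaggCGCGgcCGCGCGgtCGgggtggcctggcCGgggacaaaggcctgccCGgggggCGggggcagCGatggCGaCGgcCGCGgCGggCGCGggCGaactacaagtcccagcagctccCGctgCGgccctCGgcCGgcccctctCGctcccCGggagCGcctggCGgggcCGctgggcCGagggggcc
ZNF714, chr19:21081953-21082252, plus strand: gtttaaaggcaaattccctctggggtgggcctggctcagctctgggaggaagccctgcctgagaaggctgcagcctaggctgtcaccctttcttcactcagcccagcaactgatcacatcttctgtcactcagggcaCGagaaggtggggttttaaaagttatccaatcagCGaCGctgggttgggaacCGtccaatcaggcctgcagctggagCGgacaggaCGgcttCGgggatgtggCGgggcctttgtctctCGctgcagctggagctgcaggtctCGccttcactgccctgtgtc
ZNF257, chr19:22052234-22052533, plus strand: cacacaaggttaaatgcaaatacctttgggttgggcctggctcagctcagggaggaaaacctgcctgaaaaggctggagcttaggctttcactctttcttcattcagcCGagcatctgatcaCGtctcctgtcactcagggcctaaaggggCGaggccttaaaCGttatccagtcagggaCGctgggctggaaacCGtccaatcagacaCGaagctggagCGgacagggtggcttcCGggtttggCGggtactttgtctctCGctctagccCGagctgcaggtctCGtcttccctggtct
ZNF90, chr19:20077750-20078049, plus strand: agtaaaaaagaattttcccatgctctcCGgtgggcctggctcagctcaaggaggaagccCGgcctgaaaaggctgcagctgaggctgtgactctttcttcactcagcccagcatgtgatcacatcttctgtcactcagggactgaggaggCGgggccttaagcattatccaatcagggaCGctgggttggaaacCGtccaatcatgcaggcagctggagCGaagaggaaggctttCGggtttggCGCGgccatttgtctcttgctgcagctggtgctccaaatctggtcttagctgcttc
The window of ZNF428 holds 37 CG pairs, that of ZNF358 holds 32 and that of ZNF146 holds 24. The windows of ZNF257, ZNF714 and ZNF90 hold 13, 10 and 9. The median was 20 over the 184 windows and 23 over the windows of all protein-coding genes, so ZNF146 lies close to both. Genes of 10 FPKM or more varied: among those not printed, ZNF574 has 6 CG pairs and ZNF787 has 32.

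The level of the 249 genes was uneven. Their median was 2.04 FPKM over the 6 libraries, 178 had a mean of at least 1 FPKM, 49 reached 5 FPKM and 3 reached 20. At the other end, 33 had a mean under 0.1 FPKM, and 8 of these had 0 reads in all 6 libraries. A count of 0 in 1 library allows up to 3 reads there, and 0 in all 6 allows fewer in each. The 8 were ZNF625-ZNF20, ZNF729, ZNF99, ZNF723, ZNF816-ZNF321P, ZNF347, ZNF665 and ZNF135. The share with at least 1 FPKM was 71.5%, beside 74.4% of the ZNF genes of other chromosomes and 50.4% of the other protein-coding genes of chromosome 19. Median levels were 2.78 FPKM in the ZNF genes of other chromosomes and 1.06 in the other protein-coding genes of chromosome 19. Over all protein-coding genes the median was 1.71 FPKM.

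ZNF146, a protein made almost wholly of fingers, was the most abundant. It had 89.1, 86.0 and 90.3 FPKM in the Y483E libraries and 96.3, 89.2 and 91.8 in the Y483F libraries, so the lines overlapped. ZNF428 followed with 53.8, 55.9 and 53.1 FPKM in Y483E and 50.5, 50.3 and 51.6 in Y483F, and every Y483E library lay above every Y483F library. ZNF580 came next with a mean of 20.4 FPKM, and ZNF45, ZNF581, ZNF302, ZNF227, ZNF787, ZNF260 and ZNF579 followed at 18.4, 18.0, 17.6, 16.5, 14.9, 12.7 and 11.8 FPKM. The step from ZNF146 to ZNF428 and that from ZNF428 to ZNF580 were far larger than the spread between libraries, whereas the ranges over libraries of ZNF45, ZNF581 and ZNF302 overlapped. Of these 10 genes 7 had no KRAB pattern, namely ZNF146, ZNF428, ZNF580, ZNF581, ZNF787, ZNF260 and ZNF579. Over all 249 genes the median was 1.76 FPKM for those with the pattern and 4.98 FPKM for the 40 without it.

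Levels differed by cluster. In cluster 3, at 11.48 to 12.64 Mb, the median was 0.325 FPKM, 10 of 26 genes had a mean of at least 1 FPKM and 9 were under 0.1 FPKM. This cluster holds ZNF490, ZNF625, ZNF564, ZNF20, ZNF709 and ZNF625-ZNF20, all under 1 FPKM. Each shares at least 50% of its exon bases with another gene on the same strand, so its level is uncertain. The part of this sharing in the low median was not tested. In cluster 4 the median was 0.858 FPKM, 17 of 37 genes reached 1 FPKM and 9 were under 0.1 FPKM. In clusters 5, 6 and 7 no gene was under 0.1 FPKM and the medians were 4.11, 4.22 and 4.64 FPKM. Cluster 6, at 36.18 to 37.82 Mb, had 25 of 26 genes at 1 FPKM or more. The medians of the remaining clusters were 2.12 in cluster 1, 2.93 in cluster 2, 1.42 in cluster 8, 4.54 in cluster 9 and 2.90 FPKM in cluster 10.

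**Figure D1:**
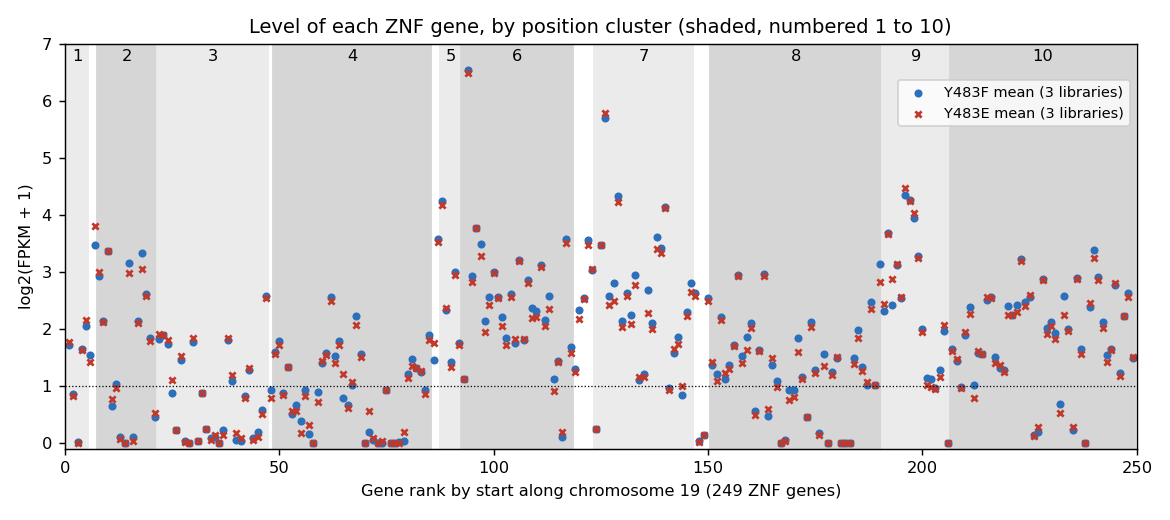
Mean level of each of the 249 genes, as log2(FPKM + 1), against its rank by start along chromosome 19, with crosses for Y483E and circles for Y483F (3 libraries each), clusters shaded and numbered, and a dotted line at 1 FPKM. Many genes of clusters 3 and 4 lie at or near 0, and nearly all genes of clusters 5 to 7 lie above the line.

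The gene with the highest level in each cluster was also followed by name. ZNF77 led cluster 1 at 3.33 FPKM, ZNF317 led cluster 2 at 9.31, ZNF791 led cluster 3 at 4.93 and ZNF714 led cluster 4 at 4.76. ZNF302, ZNF146, ZNF428 and ZNF580 led clusters 5, 6, 7 and 9. ZNF331, an imprinted gene, led cluster 8 at 6.95 FPKM, and ZNF274 led cluster 10 at 8.98 FPKM. ZNF274 is known for bringing SETDB1 to the ends of other zinc finger genes. Cluster 4 also holds ZNF91, which represses SVA elements, at 1.68 FPKM, and ZNF93, which represses LINE-1 elements, at 0.444 FPKM, both named for these known roles and not by the rule.

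Some of these genes share sequence with other genes, and how reads from shared sequence were assigned is not given. A total of 11 genes shared at least 50% of their exon bases with another gene on the same strand: ZNF468, ZNF490, ZNF625, ZNF320, ZNF564, ZNF20, ZNF559-ZNF177, ZNF709, ZNF177, ZNF625-ZNF20 and ZNF816-ZNF321P. ZNF320 shared 72.5% of its exon bases with ZNF468, and the 2 genes were listed at means between 0.110 and 0.127 FPKM and between 1.34 and 1.43 FPKM in the 2 lines. Except for ZNF468 they were under 1 FPKM, and all 11 are uncertain, as reads from shared exons could have gone to one gene, to another or to neither. Genes with stretches of 100 bases also found in other genes tended to be lower, at Pearson's r of -0.268 and Spearman's rho of -0.22 between log2(FPKM + 1) and the share of such stretches over the 249 genes. These genes share libraries and ancestry and are not independent.

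Promoters with more CG pairs went with higher levels. Across the 184 genes with a promoter window, r was 0.334 and rho 0.332, given as a description. The median number of CG pairs was 16 for genes under 0.1 FPKM, 14 from 0.1 to 1, 21 from 1 to 5 and 24 at 5 FPKM and over. By cluster it was 10 in cluster 4 and 15.5 in cluster 3, against 30.5 in cluster 9 and 26 in cluster 5. The value of cluster 5 rests on 4 windows. Not every cluster followed this order: cluster 7 had 19 CG pairs at a median level of 4.64 FPKM. Clusters 1 and 8 had 25 and 24.5 CG pairs at median levels of 2.12 and 1.42 FPKM. In clusters 2, 6 and 10 the median number was 18, 23.5 and 21. The number of fingers went only weakly with level, at r of -0.112 and rho of -0.0746 over 249 genes.

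**Figure D2:**
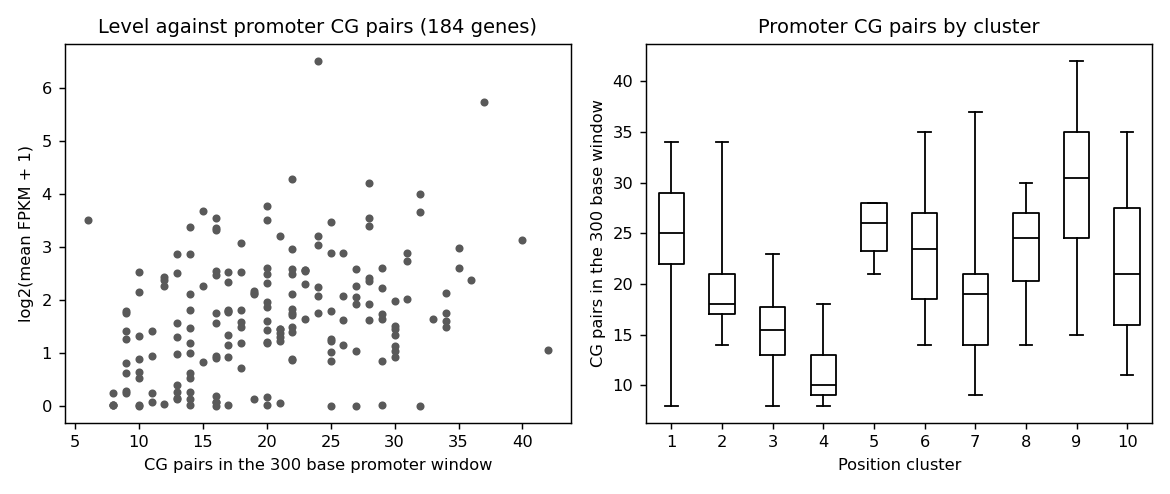
Left, log2 of the mean FPKM plus 1 against the number of CG pairs in the promoter window, 1 point for each of 184 genes. Right, the number of CG pairs by cluster, with the median, quartiles and range, lowest in cluster 4 (median 10) and highest in cluster 9 (median 30.5).

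The promoters of these genes also differed in composition from those of other genes. The letters CCAAT, searched on both strands, were found in 55.4% of the 184 windows, beside 36.5% of 12912 windows of protein-coding genes, 38.1% of those of other chromosome 19 genes and 44.0% of those of ZNF genes elsewhere. TATAAA, also searched on both strands, was found in 2.17% of the windows, beside 9.34%, 8.22% and 3.85%. Neither motif contains the other. Of the printed windows, those of ZNF714 and ZNF90 hold 2 matches to CCAAT and that of ZNF257 holds 1. A match is a description of the letters and no evidence of binding.

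Between the lines, no zinc finger gene of chromosome 19 passed the test, but more of them were lower in Y483E than higher. Of the 178 genes tested by limma on log2(FPKM + 1), 49 were higher and 129 lower in Y483E, which is 72.5% lower beside 47.2% of all 12833 genes tested. Their median log2 fold change, Y483E over Y483F, was -0.047, beside 0.0070 over all genes. At an adjusted p of 0.05 limma called 0 of the 178, and 0% of all genes. At an unadjusted p under 0.05 it had 5 higher and 15 lower (2.81% and 8.43%), beside 6.51% and 5.7% of all genes. All 3 Y483E libraries lay above all 3 Y483F libraries for 8 genes and below them for 28 (4.49% and 15.7%), beside 9.72% and 7.37% of all genes.

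On read counts recovered from the FPKM values, edgeR's quasi-likelihood test had 57 of 213 genes higher and 156 lower, which is 73.2% lower beside 51.7% of all genes. The median was -0.071 beside -0.0059 over all genes. It called 0 of the 213 at an adjusted p of 0.05, beside 0.0438% of all genes, and at an unadjusted p under 0.05 it had 6 higher and 23 lower, beside 5.78% and 7.61%. DESeq2 called 0 of these genes, beside 0.965% of all. The 71 genes with a mean under 1 FPKM were not tested by limma. Just above that limit stood ZNF559 at 1.01 and ZNF441 at 1.00 FPKM, and just below it ZNF460 at 0.959 and ZNF471 at 0.949.

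Among the 617 other tested protein-coding genes of the chromosome, 374 had a higher and 243 a lower value in Y483E (39.4% lower beside 47.2% of all genes), and the median was 0.027. Their median difference was 0.058 between the replicates 1 and 0.013 in replicates 2 and 3, where 45.5% were lower beside 45.4% of all genes. The ZNF genes of other chromosomes leaned the same way as those of chromosome 19, with 67 higher and 131 lower (66.2% lower) and a median of -0.041. These comparisons use the same 6 libraries and are given side by side without a test. Within the 178 genes, the 146 with a KRAB pattern had 35 higher and 111 lower, with a median of -0.052. The 32 without it had 14 higher and 18 lower, with a median of -0.0073.

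By position, the medians of clusters 2, 4, 5, 6, 7, 8 and 10 were below 0 in every setting tried. Cluster 7, at 43.53 to 44.50 Mb, had the lowest in the limma fit of all libraries, at -0.105 with 3 of 20 tested genes higher and 17 lower, and a range of -0.139 to -0.080 over the settings. It was the lowest in 26 of 30 other settings, and cluster 4, 6 or 8 was lower in the remaining 4, all of them edgeR fits that left out 1 library. In cluster 6, 23 of 25 were lower and the median was -0.070. Clusters 8, 10 and 4 had 5 of 28, 10 of 36 and 5 of 17 higher, with medians of -0.055, -0.039 and -0.046. These medians depended on single libraries: without Y483E replicate 3 they were -0.028, -0.0042 and -0.078, without Y483E replicate 1 those of clusters 8 and 10 were -0.084 and -0.066, without Y483F replicate 1 that of cluster 10 was -0.061, and without Y483F replicate 3 that of cluster 4 was -0.026. Cluster 3 went the other way, with 9 of 10 tested genes higher, a median of 0.059 and a range of 0.012 to 0.083 over the settings. Without Y483E replicate 1 or 3 its median was 0.036 or 0.037. The changes of its genes were small. ZNF441 had 1.43, 0.930 and 1.12 FPKM in Y483E and 0.885, 0.878 and 0.776 in Y483F, and ZNF44 averaged 1.28 ± 0.052 FPKM (SD, n = 3) in Y483E and 1.13 ± 0.043 in Y483F. The groups of these 2 genes did not overlap, those of the other 8 did, and none of the 10 had an unadjusted limma p under 0.05. Clusters 1 and 9 had medians of 0.041 and 0.0027, and their sign changed in 7 of 29 and 15 of 30 settings.

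**Figure D3:**
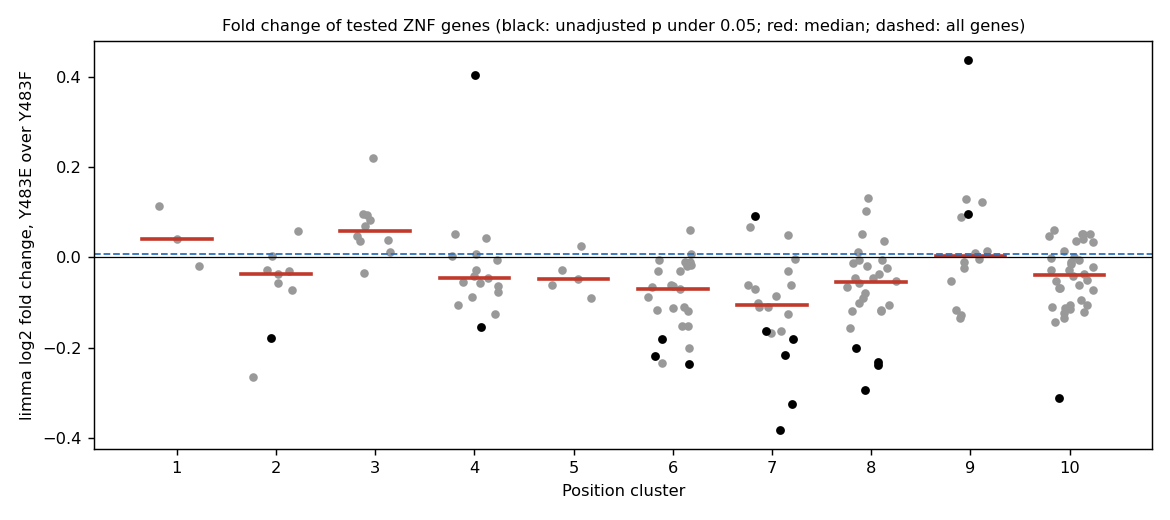
Log2 fold change of Y483E over Y483F by limma for each tested gene of the 10 clusters (the 11 tested genes outside clusters are not drawn), with black points at an unadjusted p under 0.05, red bars at cluster medians and a dashed line at the median of all genes, 0.0070. Most points of clusters 6, 7, 8 and 10 lie below the line and most of cluster 3 above it, and no point passed an adjusted p of 0.05.

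The lean toward lower values over all 178 genes was not present in all libraries. Between the replicates 1 of the lines, 86 of 178 genes were lower in Y483E, with a median difference of 0.0050 on the log2(FPKM + 1) scale. Of all genes, 51.5% were lower, with a median of -0.0043. Clusters 5, 6, 7 and 8 had medians below 0 between the replicates 1, and the other clusters had medians above 0. In cluster 7, 13 of 20 genes were lower, with a median of -0.059, and in cluster 6, 17 of 25, with -0.038. Between replicates 2 and 3, numbered 4 and 5, 126 of 178 were lower, with a median of -0.066. Of all genes, 45.4% were lower there, with a median of 0.015. In cluster 3, 1 of 10 genes was lower between the replicates 1 and 4 of 10 in replicates 2 and 3. The median deviation of the 178 genes from their own means was -0.0014, -0.028 and -0.038 in Y483E replicates 1, 2 and 3, and -0.0044, 0.034 and 0.026 in Y483F. Both replicates 1 thus lay near 0, while replicates 2 and 3 of the lines lay on opposite sides. Summed over all 249 genes, the level was 913, 898 and 895 FPKM in Y483E and 917, 945 and 937 FPKM in Y483F. What the numbers mark was not given, and its part in the result was not tested beyond these values and the interaction of line and number. For that interaction edgeR called 3 of 218 genes, ZNF121, ZNF331 and ZNF587, a share below the 2.01% of all genes. Limma called 0 of 178, beside 0.0623%, and at an unadjusted p under 0.05 it had 11 higher and 2 lower, beside 7.99% and 7.9%.

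**Figure D4:**
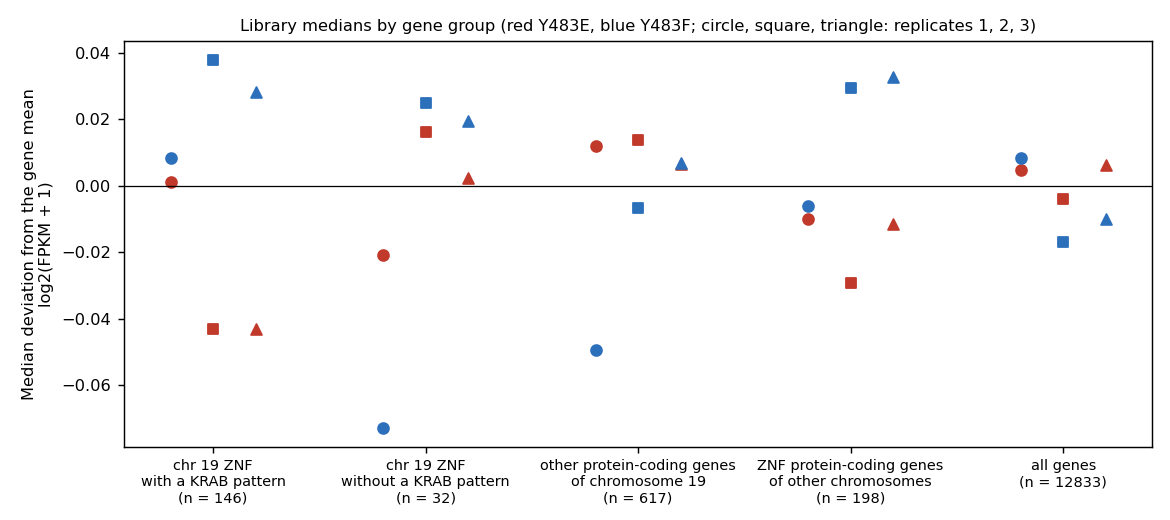
Median deviation from each gene's mean over 6 libraries, in log2(FPKM + 1), for 5 groups of genes, with red for Y483E, blue for Y483F, and circles, squares and triangles for replicates 1, 2 and 3. Among chromosome 19 ZNF genes with a KRAB pattern the replicates 1 lie near 0, at 0.0012 and 0.0085, while replicates 2 and 3 lie at -0.043 and -0.043 in Y483E and at 0.038 and 0.028 in Y483F.

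With replicates 2 and 3 alone, edgeR called 26 of 213 genes at an adjusted p of 0.05, of which 5 were higher and 21 lower in Y483E (2.35% and 9.86%). The background was 7.07% and 7.98% of all genes, so the share called lower was near it and the share called higher was below it. This comparison was chosen because earlier results of these data showed the split. With 2 libraries a line, limma called 2 higher and 6 lower, beside 2.57% and 2.88%. Leaving out Y483F replicate 1 alone, edgeR called 2 higher and 13 lower of 215, beside 1.82% and 4.27% of all genes. Leaving out Y483E replicate 1 it called 1 higher and 0 lower of 214, beside 0.739% and 0.324%. With a term for number 1 against 4 and 5, edgeR called 3 higher and 0 lower of 215, beside 0.503% and 0.521% of all genes. Limma with array weights, which give libraries unequal weight, called 3 of 178 higher and 14 lower, beside 7.32% and 7.39%, and edgeR without a filter called 5 of 241 higher and 7 lower, beside 0.852% and 1.3%.

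Among the genes with higher values in Y483E, ZNF524 of cluster 9 had 7.15, 5.80 and 5.99 FPKM in Y483E and 4.68, 4.05 and 4.44 in Y483F. The groups did not overlap, and limma gave 0.44 ± 0.085 (SE) with an adjusted p of 0.257. ZNF524 shares 14.1% of its exon bases with FIZ1 on the opposite strand, which had a mean of 4.04 FPKM. ZNF358, which lies outside the clusters and has 9 finger patterns and no KRAB pattern, had 11.8, 13.1 and 14.1 FPKM in Y483E and 9.23, 10.7 and 10.5 in Y483F. Its fold was 0.33 ± 0.080 (SE, limma adjusted p 0.263), and the difference was 0.33 between the replicates 1 and 0.33 in replicates 2 and 3. ZNF738 of cluster 4, whose predicted protein has a KRAB pattern and no finger, had 1.06, 1.63 and 1.24 FPKM in Y483E and 0.598, 0.783 and 0.831 in Y483F. Limma gave 0.40 ± 0.117 (adjusted p 0.309), and edgeR, with no pseudocount of 1 FPKM, gave 0.82 ± 0.208 (adjusted p 0.175). ZNF358 and ZNF738 were called by edgeR with the term for library number, at adjusted p of 0.0445 and 0.0488.

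The other 2 with higher values at an unadjusted p under 0.05 were abundant genes with small differences. ZNF787 had 15.3, 15.6 and 15.5 FPKM in Y483E and 14.1, 14.5 and 14.6 in Y483F, a limma fold of 0.095 with an adjusted p of 0.400. ZNF428, given above, had a fold of 0.092 and an adjusted p of 0.403. In neither gene did the lines overlap.

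Among the genes with lower values in Y483E, ZNF224 of cluster 7, a KRAB protein known as a repressor of the aldolase A gene, had the largest limma fold. It had 4.18, 4.17 and 3.28 FPKM in Y483E and 4.18, 6.52 and 5.53 in Y483F. Y483F replicate 1 thus stood with the Y483E libraries and the groups overlapped. The fold was -0.38 ± 0.144 (SE, limma adjusted p 0.364), and edgeR on replicates 2 and 3 gave -0.69 ± 0.104 (adjusted p 0.00052). ZNF224 shares 40.5% of its exon bases with AC021092.1 on the opposite strand, which had a limma fold of -0.22 (adjusted p 0.343). As it is not known whether the libraries keep strand, reads of the 2 cannot be told apart.

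ZNF587 of cluster 10 had 3.83, 3.83 and 3.64 FPKM in Y483E and 3.84, 5.79 and 5.28 in Y483F. Its lines did not overlap, but Y483F replicate 1 lay only just above the Y483E libraries. The limma fold was -0.31 ± 0.122 (adjusted p 0.380). It shares 33.3% of its exon bases with ZNF814 on the opposite strand, which had an edgeR fold of -0.47 (adjusted p 0.220). ZNF331 had 6.68, 6.06 and 5.62 FPKM in Y483E and 6.38, 8.84 and 8.10 in Y483F, with overlap of the lines, a limma fold of -0.29 ± 0.113 and an adjusted p of 0.368. ZNF404 of cluster 7 had 5.57, 4.41 and 3.83 FPKM and then 5.58, 6.44 and 5.89, a fold of -0.32 ± 0.114 and a limma adjusted p of 0.353. The lines did not overlap in ZNF404, but Y483E replicate 1 lay only just below Y483F replicate 1. ZNF404 shares 17.6% of its exon bases with AC006213.2 on the same strand, which had a mean of 1.49 FPKM.

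ZNF793 and ZNF529 of cluster 6 and ZNF841 and ZNF83 of cluster 8 were lower in all 3 Y483E libraries than in any Y483F library. ZNF529 had 8.95, 8.71 and 8.45 FPKM in Y483E and 9.52, 11.1 and 10.3 in Y483F, with a limma fold of -0.22 and an adjusted p of 0.301. ZNF793 had 4.28, 4.25 and 3.77 FPKM and then 4.73, 5.38 and 4.92, with a fold of -0.24 (limma adjusted p 0.309). ZNF841 and ZNF83 had limma folds of -0.24 and -0.23 at adjusted p of 0.356 and 0.368. In these 4 genes the replicates 1 also differed in the same direction, at -0.175 to -0.065 on the log2(FPKM + 1) scale.

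**Figure D5:**
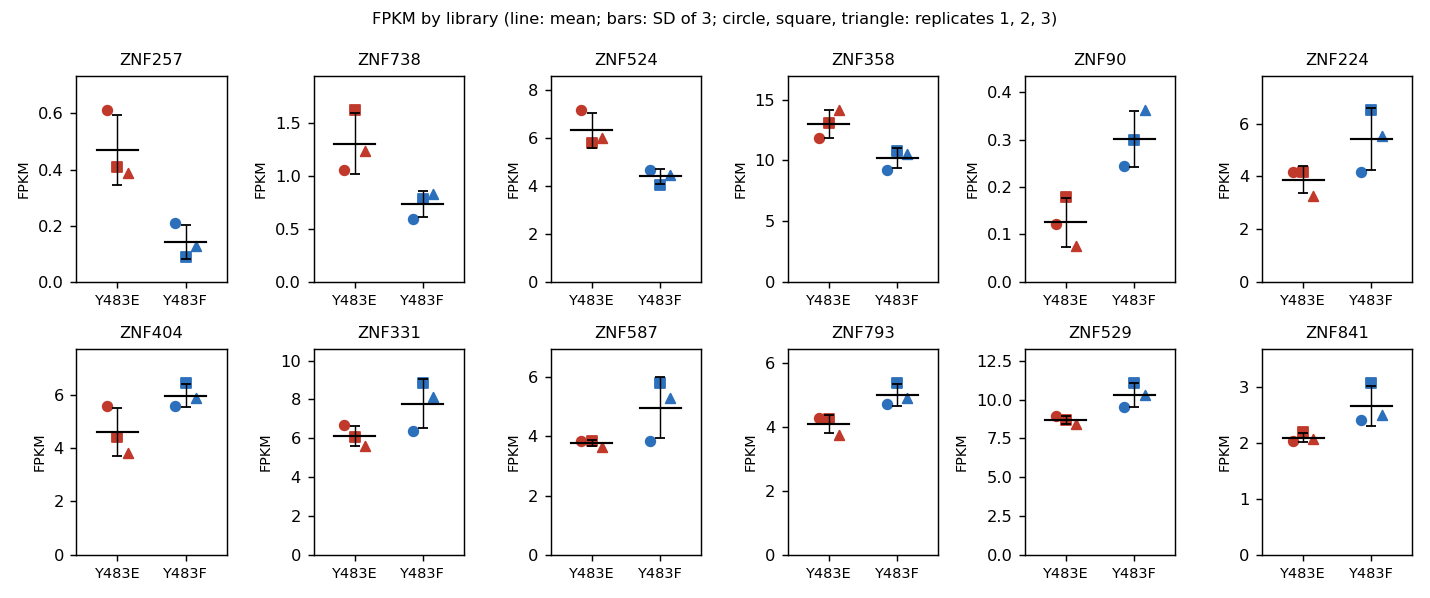
FPKM of 12 genes in each library, on linear axes from 0, with replicates 1, 2 and 3 as circles, squares and triangles, lines at the means and bars of 1 SD over 3 libraries. ZNF257, ZNF738, ZNF524 and ZNF358 are higher in all 3 Y483E libraries, and in ZNF224, ZNF331 and ZNF587 the circle of Y483F lies with the Y483E points. In ZNF404 the circle of Y483E lies just below that of Y483F, and the lines do not overlap.

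Among the genes tested by edgeR, 2 had a log2 fold change beyond 1 in either direction, ZNF257 and ZNF90. Both lie in cluster 4, were too low for limma and were named after their values were seen. ZNF257 had 0.612, 0.409 and 0.388 FPKM in Y483E and 0.209, 0.0884 and 0.127 in Y483F, from 55, 48 and 36 reads against 18, 8 and 13. The lines did not overlap, and edgeR gave 1.72 ± 0.333 (SE) with an adjusted p of 0.117 over all libraries, 0.0031 in replicates 2 and 3, and 0.0206 with the term for library number. ZNF90 went the other way, with 0.123, 0.180 and 0.0757 FPKM in Y483E and 0.244, 0.299 and 0.362 in Y483F, from 11, 21 and 7 reads against 21, 27 and 37. Its edgeR fold was -1.24 ± 0.346 (adjusted p 0.190). Other genes fell below edgeR's filter, among them ZNF730 of cluster 4, with 9, 5 and 13 reads in Y483E and 3, 0 and 1 in Y483F, and ZNF563 of cluster 3, with 7, 9 and 6 against 2, 0 and 5. These were also named after their values were seen, and their reads were few.

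The authors' deposited table, which lists genes at an unadjusted p under 0.05, held 21 of the 249 genes, of which 6 were higher and 15 lower in Y483E. Of the 31211 genes with a read, 2.47% were listed as higher and 2.83% as lower. None of the 21 had an adjusted p under 0.05 in the authors' deposited table, and the lowest was 0.0600 for ZNF224. That table gives ZNF257 a log2 fold change of 1.74, ZNF90 -1.25 and ZNF730 2.69, each with an adjusted p of 1.

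The partners of KRAB zinc finger proteins were measured beside them. All 32 corepressor and heterochromatin genes on the list had a mean of at least 1 FPKM, and 20 were higher and 12 lower in Y483E, with a median of 0.019. None passed the limma threshold, and at an unadjusted p under 0.05 there were 4 higher and 1 lower, beside 6.51% and 5.7% of all genes. TRIM28, the corepressor itself, had 279, 252 and 256 FPKM in Y483E and 268, 258 and 271 in Y483F, with overlap of the lines and a limma fold of -0.02 ± 0.053. SETDB1 had 8.27, 8.48 and 8.61 FPKM and then 8.48, 8.52 and 8.13, with a fold of 0.01 ± 0.045. The 4 higher genes were CHD3, RBBP7, UHRF1 and CBX1, and the lower one was DNMT3B, a DNA methyltransferase. All 5 are named after their values were seen. CHD3, a chromatin remodeller of the NuRD complex, had a fold of 0.21 (limma adjusted p 0.272) and DNMT3B one of -0.21 (limma adjusted p 0.315). With replicates 2 and 3 alone, edgeR called 4 of the 32 higher and 2 lower at an adjusted p of 0.05, beside 7.07% and 7.98% of all genes. These were CHD3, RBBP7, CBX1 and CBX5, and MTA1 and DNMT3B. CBX5 and MTA1 are likewise named after their values were seen.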

How the data were processed

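Of the 6 libraries, 3 per line, the authors' deposited table gives FPKM values, with gene length, for every gene. A second deposited table gives, for 1652 genes, the authors' raw read counts, the authors' counts divided by size factors (a signal), log2 fold changes and p-values. DESeq, DESeq2, featureCounts 1.5.0-p3, StringTie 1.3.3b and HISAT2 2.0.5 are named in the submitters' processing notes. The role of each tool and the build are not given in the sources used here, and the labels' protocols name a directional and a non-directional library without saying which was made. How reads matching several genes were assigned is likewise not given.

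FPKM times gene length and library total gave whole reads within 0.01 for 100% of values, and these equalled the listed counts of all 1652 genes. Since the totals came from those counts, this match was largely built in. The depth per library limits low genes, and a count of 0 allows 3 reads.

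The members and gene lists were chosen with earlier results of these data known. The test was limma 3.58.1 (lmFit, eBayes with trend) on log2(FPKM + 1). It was two-sided and took genes averaging 1 FPKM or more, with Benjamini-Hochberg adjustment over all genes tested and a threshold of 0.05. A pseudocount of 1 understates the folds of low genes. DESeq2 1.42.0 and edgeR 4.0.16 (TMM, filterByExpr, quasi-likelihood test) were run on the recovered reads. Fits were tested on simulated data. Genes named were the 10 highest, the highest of each cluster, those past the threshold or, as there were none, up to 8 largest rises and falls at an unadjusted p under 0.05, those called by edgeR over all libraries or by the authors, the 2 on either side of the filter, and those sharing at least 50% of their exons on the same strand. TRIM28 and SETDB1 were named from the cofactor list. Fingers and KRAB patterns came from translated GENCODE 29 coding sequences of 248 members, and promoters from RefSeq, within 1000 bases of the gene's start. Alternatives were other pseudocounts, filters and scalings, array weights, a block for replicate number, a term for library number, correction for GC content and length, and leaving out each library. The edgeR fits that leave out a library and edgeR's interaction model were chosen after seeing the data.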

Additional observations from a re-analysis of the deposited data

Results flagged for a closer look

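For 3 genes the difference between the lines was not the same in the libraries numbered 1 as in those numbered 4 and 5, by an interaction term in edgeR. That model takes the single library numbered 1 of each line to have the same spread as the rest. The interaction is the log2 fold change between the libraries numbered 1 minus that in the libraries numbered 4 and 5. It was 0.53 ± 0.104 (SE) for ZNF121 of cluster 2, with an adjusted p of 0.0133. For ZNF331 it was 0.60 ± 0.108, with an adjusted p of 0.0076, and for ZNF587 it was 0.56 ± 0.139, with an adjusted p of 0.0475. ZNF121 had 7.51, 7.55 and 6.98 FPKM in Y483E and 7.20, 10.2 and 9.93 in Y483F, so that Y483F replicate 1 lay among the Y483E libraries. The 3 are among 218 genes tested, a smaller share than the 2.01% of all genes that edgeR called for this interaction, so the count is no result about zinc finger genes. Limma called 0 of the 178 genes for it, and at an unadjusted p under 0.05 it had 11 higher and 2 lower, beside 7.99% and 7.9% of all genes.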

How the results depend on the processing

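No setting tried changed the sign of the median log2 fold change of the tested zinc finger genes, which ran from -0.087 to -0.032, and the 13 genes named for a rise or fall kept their direction wherever they were tested. Limma called 0 zinc finger genes of chromosome 19 with other pseudocounts, filters and scaling, with the term for library number and without any single library. It called 17 with array weights and 8 in the libraries numbered 4 and 5 alone, where the median was -0.067. edgeR gave a median of -0.071 and 0 calls with all libraries, -0.067 and 0 without TMM, -0.069 and 3 with the term for library number, -0.086 and 26 in the libraries numbered 4 and 5, and 12 calls without a filter. Leaving out a library, limma medians ran from -0.056 to -0.041, and edgeR gave 0 to 15 calls with medians from -0.087 to -0.051 (-0.068 without Y483E replicate 2, -0.072 without Y483F replicate 1). The 15 came without Y483F replicate 1, and without Y483E replicate 1 edgeR made 1 call. The interaction of line and library number had 0 calls by limma and 3 by edgeR. The cause of these differences was not tested. Correction for GC content and length gave 0 calls and a median of -0.056. Replicates with the same number were not shown to be paired: the correlations of their deviations were 0.056, 0.139 and -0.095. With the replicate number as a block, limma made 0 calls with a median of -0.047 and edgeR 0 calls with a median of -0.071, and with the correction for GC content and length besides limma made 0 calls. Leaving out a library, the limma medians of clusters 2 and 5 ran from -0.071 (without Y483F replicate 1) to -0.025 (without Y483E replicate 2) and from -0.078 (without Y483E replicate 3) to -0.020 (without Y483F replicate 3). Depth limits the 71 genes under 1 FPKM, where folds rest on few reads.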
